A study of Mus musculus with 8 samples.

Results

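The comparison described here is between sorted astrocytes of 2 labelled kinds of tumour stroma, stroma B against stroma A. Its members are the 6 read-count columns of the bulk RNA-seq table, taken by their labels, out of 8 samples in the series. The other 2 samples are single-cell libraries and were not used. All 6 libraries came from brain tumours of mice labelled Patched 1 deficient, and both groups share that genotype. Stroma A is numbered 1 to 3 for the samples titled AS1, AS4 and AS5-1, and stroma B likewise for AS5-2, AS10 and AS11. The cells were sorted by flow cytometry after papain dissociation, with no sort marker, age or drug named. The study set out to compare astrocytes of primary and relapsed medulloblastoma, but no label ties stroma A or stroma B to either. No label says whether replicates came from separate mice, so the p-values measure the spread between these samples, which may be technical.

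Medulloblastoma of this kind arises from granule neuron precursors of the cerebellum, in which loss of Patched 1 leaves the Hedgehog pathway switched on. Astrocytes take up transmitters, buffer water and ions, and secrete growth factors and matrix into the tissue around such tumours. Their close relatives in the glial lineage are oligodendrocyte precursors, which divide in the adult brain and make the cells that form myelin.

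The libraries held between 6718165 and 11798735 reads and between 15943 and 19575 detected genes. Of 20608 gene symbols, 14176 passed a filter on low counts and were tested. Levels are CPM, read counts scaled to a common library size with TMM factors, unless FPKM, which divides by gene length, is named. Fold changes are log2, stroma B against stroma A, and a gene is said to have risen or fallen only if its Benjamini-Hochberg adjusted p in edgeR's quasi-likelihood test was under 0.05. Ptch1, the gene made deficient, stood at 143, 70.3 and 110.5 CPM across the stroma A libraries and at 541, 516 and 118 across those of stroma B. A count over the whole gene does not show whether a deleted part is missing, so it checks nothing about the genotype.

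The labelled cell type was checked against its markers in deposited FPKM. Pdgfra, the growth factor receptor that defines oligodendrocyte precursors, was at 450.4, 176 and 185 FPKM in stroma A and at 42.9, 28.6 and 204 in stroma B. Slc1a3, the main glutamate transporter of immature astrocytes, was at 59.5, 12.5 and 31.3 against 195, 348 and 68.6. Gfap, the astrocyte intermediate filament, was at 12.1, 3.83 and 16.7 against 93.7, 142 and 11.6. All 12 astrocyte markers and all 9 oligodendrocyte precursor markers passed the filter. Stroma A and stroma B replicate 3 thus carried Pdgfra above these astrocyte genes, against the label, and stroma B replicates 1 and 2 did not. In bulk samples fewer cells of a type and less RNA per cell cannot be told apart.

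Outside the cell cycle lists 52 genes passed the test, of which 13 rose and 39 fell in stroma B. That excess of falls was not seen with limma on the deposited FPKM, which called 97 higher and 99 lower outside those lists. The FPKM table has 30791 rows, and only 16078 of its symbols are also in the count table, so the genes tested there differ. The excess was smaller without a filter on low counts, at 65 and 84. Falls also outnumbered rises with upper-quartile factors, at 32 against 8, and with DESeq2, at 971 against 617. Over all genes 94 passed, which is 0.663% of those tested, with 55 risen (0.388%) and 39 fallen (0.275%). Of the 55 that rose, 42 were in the cell cycle lists, and all 39 that fell were outside them. Among 81 gene families outside the cell cycle, 68 had no member past the threshold other than genes that are also in a cell cycle list. Of the 52, 36 were in no fixed list, and the 15 family members were 4 that rose (Egfr, Lhx2, Trim59 and Zfp326) and 11 that fell. A 16th, Vwf, the von Willebrand factor, was in the endothelial marker list and fell. None of the 94 had overlapping groups, where 14.2% of all genes tested lay higher and 13.1% lower in stroma B without overlap. Over all genes tested 6863 were fitted higher and 7313 lower. All 94 calls were lost when any single library other than stroma B replicate 3 was left out.

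**Figure D1:**
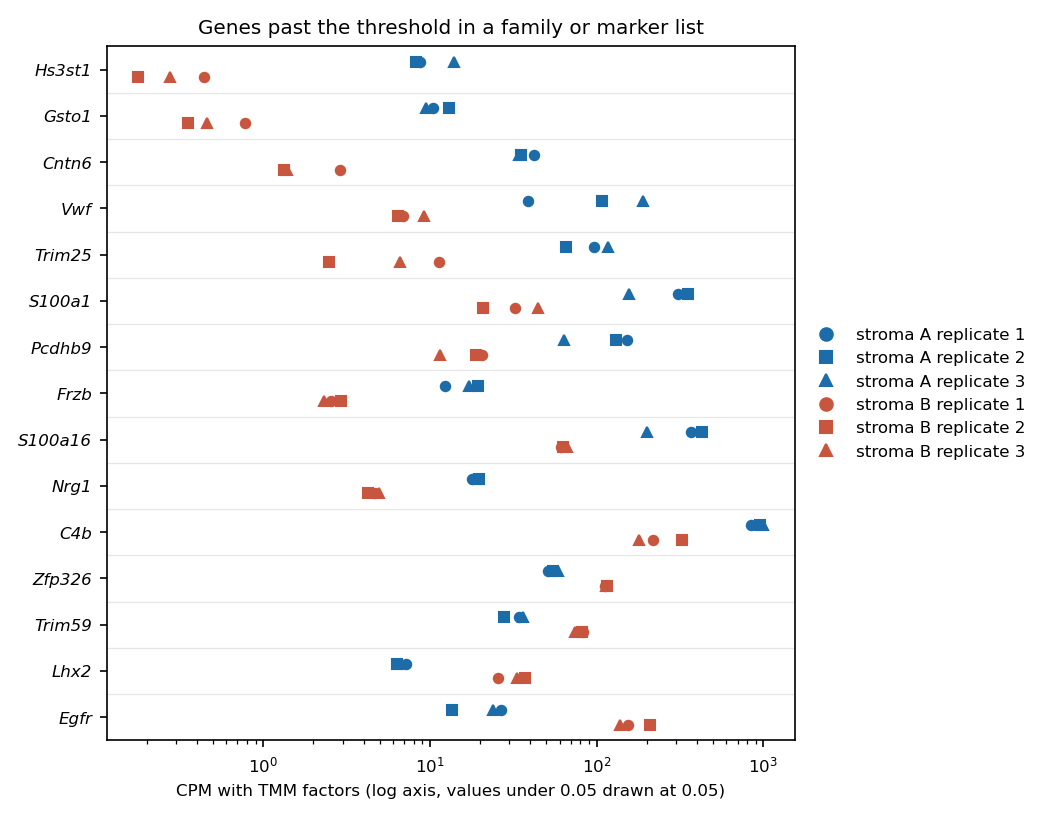
Level of 15 of the 16 family or marker genes past the threshold outside the cell cycle, in CPM on a log axis, with 1 point for each of the 3 stroma A (blue) and 3 stroma B (red) libraries. The groups do not overlap for any of the 15 genes, as for all 94 that passed, and 4 of the 15 are higher in stroma B.

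**Figure D2:**
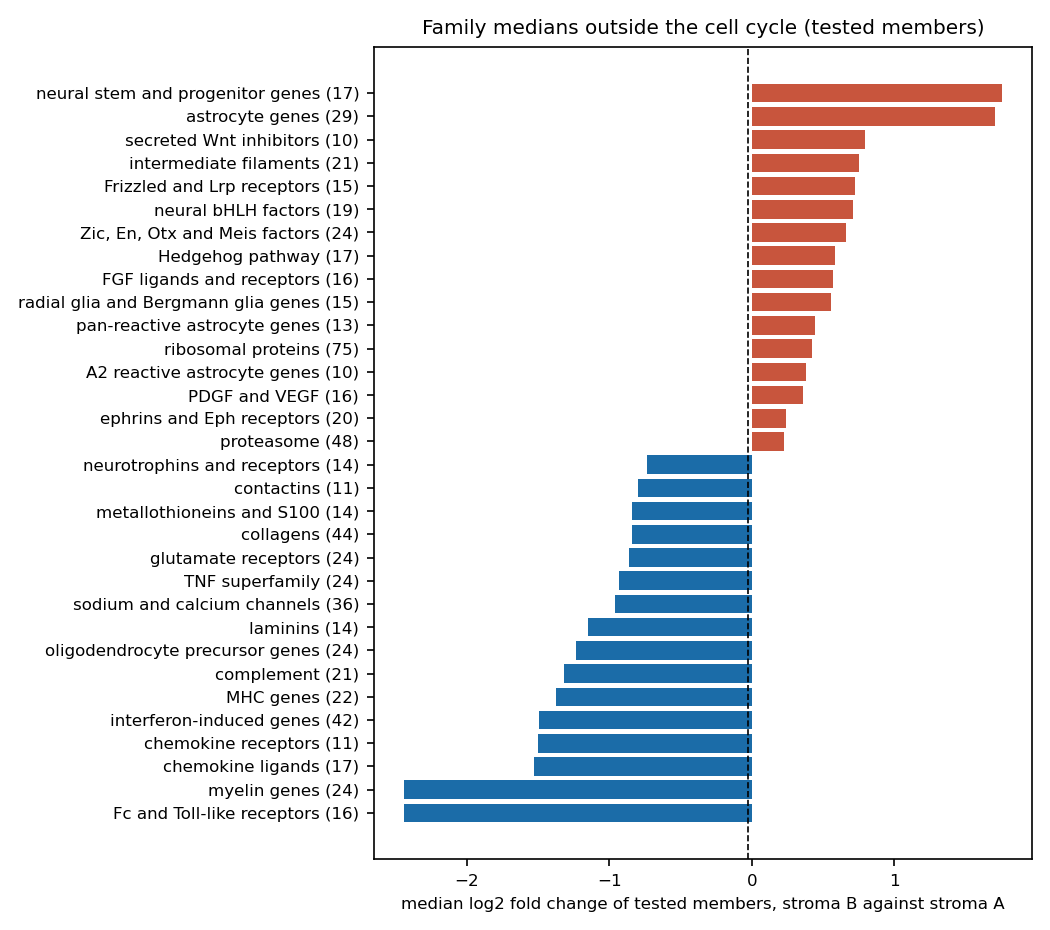
Median log2 fold change of the tested members of gene families with at least 10 tested members outside the cell cycle, the 16 lowest and the 16 highest, with the number tested in brackets. The dashed line is the median over all genes tested, −0.03, and the bars run from −2.44 for myelin and for Fc and Toll-like receptor genes (−1.41 for the latter without stroma A replicate 3) to 1.76 for neural stem and progenitor genes.

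Among growth factor signals, the 2 ErbB family members that passed moved in opposite directions. Egfr encodes a receptor for epidermal growth factor that neural progenitors and reactive glia carry (chromosome 11, 16752203 to 16918158 on mm10). It was at 26.6, 13.5 and 23.9 CPM in stroma A, against 154, 208 and 139 in stroma B. All 3 stroma B libraries lay above all 3 of stroma A, and no gene that passed had overlapping groups. Egfr rose by 2.96 log2 units (SE 0.32, edgeR adjusted p = 0.0383). Nrg1 encodes neuregulin 1, a ligand of the ErbB receptors (chromosome 8, 31814551 to 32884029). It was at 17.8, 19.8 and 19.1 CPM in stroma A, against 4.66, 4.26 and 4.98 in stroma B, with a narrow range in both groups. Nrg1 fell by 2.03 (SE 0.29, edgeR adjusted p = 0.0468). Erbb3, a neuregulin receptor of the oligodendrocyte lineage, was at 203, 138 and 137 against 12.8, 6.03 and 31.9, apart in every library, yet did not pass (log2 fold change −3.24, edgeR adjusted p = 0.0608). Tgfa, a ligand of Egfr, was at 296, 187 and 223 in stroma A, at 27.8 and 52.7 in stroma B replicates 1 and 2, and at 227 in replicate 3. In Tgfa stroma B replicate 3 therefore lay inside the stroma A range. Of the 11 tested members of this family 1 rose, 1 fell, and the median was −0.41 beside −0.03 over all genes tested. That median was −0.56 without stroma A replicate 3 and lay between −1.34 (without stroma B replicate 3) and −0.15 (without stroma A replicate 2) when another library was left out.

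Secreted Wnt inhibitors also split. Frzb, a decoy that binds Wnt ligands, was at 12.3, 19.4 and 17.1 CPM in stroma A, against 2.55, 2.93 and 2.30 in stroma B. It fell by 2.64 (SE 0.37, edgeR adjusted p = 0.0457), the only member of 10 tested to pass. Sfrp1, of the same protein family, was at 112, 49.5 and 59.0 against 1281, 555 and 181, and Draxin, an axon guidance protein that also inhibits Wnt signals, was at 115, 25.1 and 45.6 against 991, 657 and 125. Both lay higher in each stroma B library and neither passed (edgeR adjusted p = 0.0920 and 0.116). In both, stroma B replicate 3 was the lowest of its group by far. The receptor Fzd8 was at 26.0, 11.3 and 11.6 against 1.55, 0.975 and 0.277 (log2 fold change −4.12, edgeR adjusted p = 0.0607), and the ligand Wnt4 at 4.56, 2.06 and 2.70 against 18.3, 17.6 and 10.6 (2.31, edgeR adjusted p = 0.0711).

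Other signalling families had no member past the threshold. Igfbp2, which binds insulin-like growth factors, was at 32.1, 11.6 and 46.0 CPM against 152, 296 and 201 (log2 fold change 2.85, edgeR adjusted p = 0.0608). Fgf9, a glial growth factor, was at 5.36, 3.58 and 2.70 against 49.4, 36.6 and 8.76 (3.02, edgeR adjusted p = 0.0852). Gdnf, a survival factor for neurons, was at 8.21, 9.50 and 5.62 against 0.111, 0.177 and 0.645 (−4.57, edgeR adjusted p = 0.0587). Gdnf passed the filter on low counts only through stroma A. Ret, the receptor that carries the Gdnf signal, lay lower too (−1.84, edgeR adjusted p = 0.106). The 17 tested Hedgehog pathway genes had a median of 0.59, with 13 fitted higher. Of these 17, 2 lay higher without overlap (beside 14.2% of all genes tested) and 0 lower (beside 13.1%). The median was 1.10 without stroma A replicate 3 and 0.46 without replicate 2. Markers of granule precursors or tumour cells moved with this list. Their 8 genes, all fitted higher (median 2.54), summed to 542, 225 and 266 CPM in stroma A, against 3578, 2240 and 552.5 in stroma B. The Hedgehog genes summed to 572, 353 and 473 against 1999, 1625 and 569.7, and Gli1 and Gli2 are in both lists. The part of tumour cells in these values was not tested. Sfrp1, given above, is also one of the 8 markers. Smo, the signal transducer that Patched 1 holds off, was at 30.3, 10.5 and 25.2 against 182, 147 and 63.0 (2.57, edgeR adjusted p = 0.0736). Hes1, a Notch target that keeps progenitors undifferentiated, was tight in both groups, at 8.10, 6.75 and 8.42 against 25.1, 22.6 and 22, and missed the threshold (1.58, edgeR adjusted p = 0.0575).

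Among patterning transcription factors, Lhx2 rose. Lhx2 encodes a LIM homeodomain factor that holds neural progenitors and astrocyte precursors in an immature state (chromosome 2, 38339281 to 38369733). It was at 7.19, 6.33 and 6.40 CPM in stroma A, against 25.5, 37.3 and 33.5 in stroma B. The groups did not overlap, as for every gene that passed. Lhx2 rose by 2.27 (SE 0.27, edgeR adjusted p = 0.0383). Hoxb3, a gene of hindbrain patterning, did not follow the groups. It was at 218 CPM in stroma B replicate 2, 8.98 in replicate 1 and 0.184 in replicate 3, against 0.228, 1.51 and 2.70 in stroma A.

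Six4 and Lhx1, homeodomain factors of the same broad class, were apart between groups and did not pass. Six4 was at 10.2, 10.7 and 3.15 CPM against 0.444, 0.355 and 0.369 (log2 fold change −4.32, edgeR adjusted p = 0.0549). Six4 passed the filter on low counts only through stroma A. Lhx1 was at 13.7, 7.71 and 8.09 against 87.8, 75.7 and 22.7 (2.65, edgeR adjusted p = 0.0736). Among 24 Zic, En, Otx and Meis factors, which pattern the midbrain and cerebellum, 0 passed and 15 were fitted higher. Without overlap 8 lay higher, beside 14.2% of all genes tested. The median of the 24 was 0.66, but 0.17 without stroma B replicate 3 and 1.05 without replicate 2. The granule precursor or tumour markers given with the Hedgehog genes were likewise lowest in stroma B replicate 3 within their group, and Zic1 and Barhl1 are in both lists. Otx2 was at 5.70, 2.62 and 4.38 against 31.5, 43.2 and 12.8 (2.78, edgeR adjusted p = 0.0678), and Zic2 at 23.4, 9.36 and 30.3 against 166, 142 and 57.0 (2.53, edgeR adjusted p = 0.0825). In both genes stroma B replicate 3 was the lowest of its group. Zinc finger genes were the largest family outside the cell cycle, with 334 tested members and a median of 0.03. Zfp326, a zinc finger protein found with RNA-binding complexes, rose from 51.0, 54.6 and 58.5 to 113, 115 and 114 CPM (1.06, SE 0.16, edgeR adjusted p = 0.0498).

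Among adhesion and matrix families, 1 member each of the contactin, protocadherin and heparan sulfate families fell. Of the 14 such families 13 had a median below 0, and ephrins and Eph receptors had one of 0.24, with 14 of 20 fitted higher. Cntn6, a contactin that guides neurites and is prominent in the cerebellum, was at 42.1, 35.1 and 34.4 CPM in stroma A, against 2.88, 1.33 and 1.38 in stroma B. It fell by 4.32 (SE 0.40, edgeR adjusted p = 0.0383). Cntn1, the contactin of oligodendrocyte precursors, was at 2584, 2326 and 1808 against 326, 512 and 1881, so stroma B replicate 3 overlapped stroma A. Hs3st1, which adds a rare sulfate to heparan chains, fell from 8.67, 8.26 and 13.9 CPM to 0.444, 0.177 and 0.277, a log2 change of −5.06 (SE 0.60, edgeR adjusted p = 0.0383). Hs3st1 passed the filter on low counts only through stroma A, and its fold change rests on few stroma B reads. Sulf2, which removes sulfate from the same chains outside the cell, was at 2799, 1726 and 1484 against 206, 363 and 1062 and did not pass (log2 fold change −1.88, edgeR adjusted p = 0.156). Pcdhb9, one of the clustered protocadherins by which neural cells tell themselves apart, fell from 153, 132 and 63.8 CPM to 20.5, 18.9 and 11.4, a log2 change of −2.78 (SE 0.40, edgeR adjusted p = 0.0457). Near-identical neighbours in that cluster may share reads, so single members are uncertain. Of 68 tested protocadherins 46 were fitted lower, with a median of −0.37 (−0.18 without stroma B replicate 1 and −0.60 without replicate 3). Without overlap 15 lay lower and 0 higher, beside 13.1% and 14.2% of all genes tested.

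Of 44 tested collagens 0 passed and 30 were fitted lower (median −0.84, but −0.06 without stroma A replicate 3). The median level of the collagens was 2.21, 3.79 and 4.85 log2 CPM in stroma A, against 2.61, 3.67 and 2.37. Pericyte markers moved with it in stroma A, at 0.11, 5.97 and 8.02 against 3.33, 3.26 and 0.31. Fibroblast markers were at 1.57, 4.47 and 7.34 against 3.21, 6.58 and 1.52, but Col1a1, Col1a2 and Col3a1 among them are themselves collagens. The part of pericytes and fibroblasts in the collagen values was not tested. Col11a2, a fibrillar collagen, was at 231, 261 and 229 CPM against 20.6, 7.27 and 40.4 (log2 fold change −3.40, edgeR adjusted p = 0.0575), and Col20a1 at 87.4, 116 and 81.4 against 5.99, 9.31 and 21.1 (−2.96, edgeR adjusted p = 0.0541). Both were similar in the 3 stroma A libraries and apart from stroma B. Guidance genes lay in both directions. Sema3d, a secreted semaphorin, was at 693, 803 and 493 against 74.5, 160.1 and 276 (−1.96, edgeR adjusted p = 0.106), and the Eph receptor Epha7 at 3.42, 7.43 and 5.73 against 37.5, 18.5 and 15.7 (2.11, edgeR adjusted p = 0.0910).

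Calcium-binding and detoxifying proteins gave 3 further calls. S100a1 fell from 307, 354 and 156 CPM to 32.6, 20.8 and 44.7, a log2 change of −3.06 (SE 0.41, edgeR adjusted p = 0.0422). Its neighbour on chromosome 3, S100a16, fell from 366, 428 and 201 to 60.9, 63.1 and 66.4, a log2 change of −2.38 (SE 0.30, edgeR adjusted p = 0.0394). Stroma A replicate 3 was the lowest of its group in both. S100b, the member used as a glial marker, was at 208, 238 and 113 against 56.7, 132 and 76.0 and overlapped (edgeR adjusted p = 0.184). Gsto1, an omega-class glutathione transferase, fell from 10.4, 13.1 and 9.44 CPM to 0.776, 0.355 and 0.461, a log2 change of −4.35 (SE 0.53, edgeR adjusted p = 0.0383). Gsto1 passed the filter on low counts only through stroma A, so its fold change rests on few stroma B reads. Gstm1, the glutathione transferase of astrocytes, went the other way without passing, at 11.2, 8.95 and 21.4 against 71.2, 158 and 26.6 (log2 fold change 2.62, edgeR adjusted p = 0.112).

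The genes past the threshold in no fixed family were mostly lower in stroma B, with 27 fallen and 9 risen. Sdpr, named Cavin2 in RefSeq (chromosome 1), shapes the membrane pits called caveolae and rose from 26.8, 16.8 and 20.4 CPM to 247, 203 and 105, by 3.12 (edgeR adjusted p = 0.0383). Sncaip, a partner of synuclein, rose from 33.9, 18.7 and 15.3 to 131, 104 and 87.9, by 2.25 (edgeR adjusted p = 0.0498). Both genes were apart in every library, as was every gene that passed. Dlgap5 and Ticrr, which act in spindle assembly and in the start of DNA replication, were among the 9 and rose by 1.70 and 1.28, although they are in no cell cycle list.

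The largest falls outside the families reached from 2.88 to 4.81 log2 units. Scel, which encodes sciellin, a protein of cornified epithelia, fell from 55.1, 61.5 and 19.4 CPM to 2.11, 0.621 and 2.12, a log2 change of −4.81. Cobl, which nucleates actin filaments, fell from 214, 141 and 136 to 15.3, 6.38 and 22.3, a log2 change of −3.48. Dnah5, a motor of cilia, fell from 62.9, 83.7 and 72.6 to 12, 3.37 and 11, a log2 change of −3.06. For each of the 3 genes the lowest stroma A library was above the highest of stroma B, but no gene that passed had overlapping groups. Skap2, an adaptor of kinase signals in immune cells, fell from 38.2, 80.4 and 71.5 to 8.87, 7.80 and 9.22, a log2 change of −2.88. A730017C20Rik, named Minar2 in RefSeq, fell from 63.1, 48.2 and 45.9 to 4.77, 3.10 and 4.98, a log2 change of −3.61. Dcaf12l2, Pcnxl2 (named Pcnx2 in RefSeq) and Fam169a fell by 4.66, 3.10 and 3.06. For these 8 genes the edgeR adjusted p lay between 0.0383 and 0.0499.

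Glial lists lay in opposite directions, with few or no single calls. All 24 oligodendrocyte precursor genes were fitted lower in stroma B, with a median of −1.23 and 0 past the threshold. Without overlap 10 lay lower, beside 13.1% of all genes tested. The median was −2.58 without stroma B replicate 3 and −0.79 without replicate 1. Sox10, the master factor of the oligodendrocyte lineage, was at 1960, 1151 and 978 CPM against 114, 172 and 780 (edgeR adjusted p = 0.194). Of 24 myelin genes 23 were fitted lower, 19 without overlap, with a median of −2.44 (−3.66 without stroma B replicate 3) and 0 past the threshold. Mag, a myelin adhesion molecule, was at 25.7, 105 and 177 against 6.10, 1.51 and 6.08 (log2 fold change −4.49, edgeR adjusted p = 0.0625). Myrf, the factor that switches on myelin genes, was at 214, 240.1 and 185 against 11, 10.6 and 59.7 (−2.97, edgeR adjusted p = 0.103). Stroma B replicate 3 was the highest of its group in Sox10 and Myrf.

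Neural stem and progenitor genes were the only glial list with calls. Of 17 tested, 16 were fitted higher, 12 without overlap (beside 14.2% of all genes tested). Egfr and Lhx2 rose, with a list median of 1.76. Vim, an intermediate filament of immature and reactive glia, was at 187, 176 and 399 CPM against 1002, 1909 and 1154 (log2 fold change 2.42, edgeR adjusted p = 0.0608). Fabp7, the fatty acid binding protein of radial glia, was at 485, 362 and 378 against 691, 1550 and 1431 (1.58, edgeR adjusted p = 0.0883). Both were higher in stroma B replicate 3 than in replicate 1, whereas Gfap was lower in replicate 3 than in replicate 1 (81.4 against 700 CPM). Among 29 astrocyte genes 24 were fitted higher (median 1.71, but 0.93 without stroma B replicate 2), 0 passed and 9 lay higher without overlap. Slc4a4, a bicarbonate transporter of astrocytes, was at 98.7, 25.9 and 112 against 537, 1742 and 392 (3.49, edgeR adjusted p = 0.0875).

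**Figure D3:**
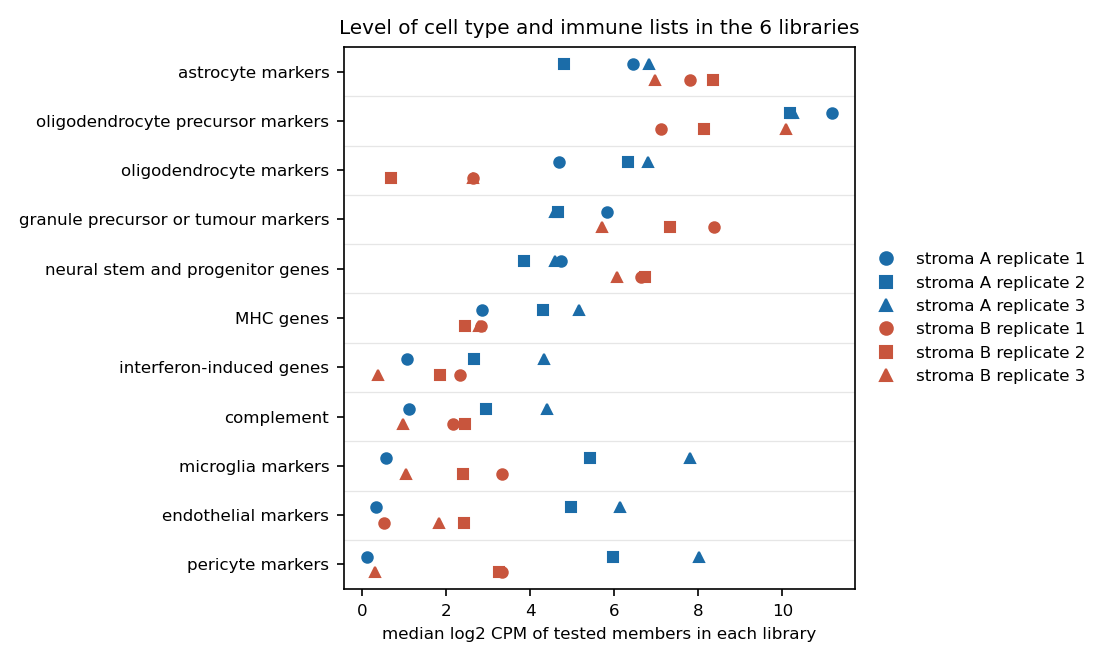
Median log2 CPM of the tested members of cell type and immune lists, with 1 point for each of the 3 stroma A (blue) and 3 stroma B (red) libraries. Stroma A replicate 1 lies at 0.56 for microglia, 0.32 for endothelial and 0.11 for pericyte markers, where stroma A replicates 2 and 3 lie between 4.97 and 8.02.

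Stroma A was not of one kind in the immune families. C4b, a complement component that astrocytes make, was at 842, 956 and 1001 CPM in stroma A, against 217, 326 and 178 in stroma B. It fell by 1.96 (SE 0.28, edgeR adjusted p = 0.0468), the only call among 21 complement genes (median −1.32, but −0.80 without stroma A replicate 3). C1qa, which microglia make, was at 1.71, 56.9 and 269 against 11.1, 6.92 and 2.21, so stroma A replicate 1 was below every stroma B library. Of 22 MHC genes 21 were fitted lower, 6 without overlap (beside 13.1% of all genes tested), and 0 passed. The median of the 22 was −1.37 and became −2.25 and −2.15 when replicate 1 of stroma A or of stroma B was dropped. Without stroma A replicate 3 it was −0.99. Trim25, a ubiquitin ligase of the antiviral RNA sensing pathway, fell from 96.2, 65.8 and 117 CPM to 11.3, 2.48 and 6.64, a log2 change of −3.77 (SE 0.55, edgeR adjusted p = 0.0478). Trim59, of the same family, rose from 34.3, 27.7 and 36.3 to 83.1, 81.3 and 74.6, by 1.28 (SE 0.19, edgeR adjusted p = 0.0498).

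Markers of other cell types moved with these immune results. Summed over 10 microglia markers, stroma A was at 29.6, 387 and 1818 CPM and stroma B at 89.3, 63.8 and 32.7. Among these markers C1qa, C1qb and C1qc are also complement genes. Summed over 9 endothelial markers, stroma A was at 48.7, 341 and 842 and stroma B at 20.4, 55.9 and 40.9. Vwf, the endothelial marker that fell, was at 38.6, 108 and 189 against 6.88, 6.47 and 9.22. Every other endothelial marker was at 4.68 CPM or less in stroma A replicate 1, with the receptor Tek at 0 and Cldn5, the tight junction protein of brain endothelium, at 0.228. Microglial Cx3cr1 was at 0.570 in that library and 42.5 and 224 in the other two. The part of these cells in the immune values was not tested. In stroma A replicate 1 C4b was at 842 CPM and Trim25 at 96.2, each above all 3 stroma B libraries. Both were named for passing the test, and no gene that passed had overlapping groups, so this position was set by the choice of genes.

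Of 42 tested interferon-induced genes 40 were fitted lower and 0 passed, with a median of −1.50 (−0.76 without stroma A replicate 3). Without overlap 12 lay lower, beside 13.1% of all genes tested. The median level of the 42 was 1.07, 2.67 and 4.31 log2 CPM in stroma A, against 2.33, 1.85 and 0.38. Stroma A replicate 1 was thus below stroma B replicates 1 and 2. In Irgm1 and Gbp7, members with the smallest p, stroma A replicate 1 was the lowest of its group yet above every stroma B library. Irgm1, an immunity-related GTPase, was at 66.5, 86.7 and 72.9 CPM against 29.6, 31.3 and 37.6 and missed the threshold (log2 fold change −1.20, edgeR adjusted p = 0.0590). Gbp7, a guanylate-binding protein, was at 34.0, 44.7 and 58.0 against 13.6, 18.8 and 17.6 (−1.45, edgeR adjusted p = 0.0677). H2-Eb1 and H2-Aa, chains of MHC class II, were low in stroma A replicate 1, as was the interferon list as a whole: H2-Eb1 was at 0.114, 90.3 and 262 against 4.44, 0.443 and 0.830, and H2-Aa at 0.684, 94.7 and 273 against 3.55, 0 and 0. The promoters of these 4 genes are shown because the pairs differ in which stroma A libraries carried them and in the elements they hold. Irgm1 and Gbp7 were named for a small p, H2-Eb1 for a large spread within stroma A, and H2-Aa after its values were seen. The pairs do not stand for their lists, and their difference in stroma A was set by that choice. Any link between the elements and the levels was not tested. Each promoter is the RefSeq window of 300 bases (GRCm38.p6) around the start of the gene, 5′ to 3′ on the gene's strand. Capitals mark the core of the interferon-stimulated element, GAAA repeated after any 2 bases, on either strand in Irgm1 (chr11:48871371-48871670, minus strand) and Gbp7 (chr3:142530086-142530385, plus strand). In H2-Eb1 (chr17:34305617-34305916, plus strand) they mark TAGCAAC, a core of the class II X box, and CTGATTGG, of the Y box. In H2-Aa (chr17:34287774-34288073, minus strand) they mark CTGATTGG alone. Only exact letters were searched, so an X box spelled otherwise is not marked.
Irgm1: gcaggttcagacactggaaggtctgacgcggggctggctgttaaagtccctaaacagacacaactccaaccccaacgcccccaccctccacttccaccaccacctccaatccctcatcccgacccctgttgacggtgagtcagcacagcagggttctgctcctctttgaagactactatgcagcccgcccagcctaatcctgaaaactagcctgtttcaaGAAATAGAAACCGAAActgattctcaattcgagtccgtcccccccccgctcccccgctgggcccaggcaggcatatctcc
Gbp7: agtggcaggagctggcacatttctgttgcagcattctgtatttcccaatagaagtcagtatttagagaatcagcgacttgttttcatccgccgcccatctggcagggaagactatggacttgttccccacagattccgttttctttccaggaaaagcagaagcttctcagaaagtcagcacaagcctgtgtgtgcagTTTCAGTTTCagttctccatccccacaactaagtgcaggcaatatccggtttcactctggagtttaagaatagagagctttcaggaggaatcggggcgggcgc
H2-Eb1: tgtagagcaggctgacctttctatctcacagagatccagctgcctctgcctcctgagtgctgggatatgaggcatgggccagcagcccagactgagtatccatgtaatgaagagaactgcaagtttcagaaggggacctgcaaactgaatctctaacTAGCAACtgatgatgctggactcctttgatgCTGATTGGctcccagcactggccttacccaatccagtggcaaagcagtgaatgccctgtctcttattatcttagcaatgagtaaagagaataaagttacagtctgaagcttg
H2-Aa: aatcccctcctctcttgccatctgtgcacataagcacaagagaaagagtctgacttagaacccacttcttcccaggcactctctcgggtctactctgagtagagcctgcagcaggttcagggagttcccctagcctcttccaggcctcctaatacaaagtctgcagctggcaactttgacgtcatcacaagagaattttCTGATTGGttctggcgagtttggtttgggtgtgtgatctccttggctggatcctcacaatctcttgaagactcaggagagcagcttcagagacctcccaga

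In Irgm1 2 overlapping matches of the interferon element lay between 30 and 15 bases before the start, and in Gbp7 1 match on the other strand lay 53 to 44 bases before it. Of the 42 tested interferon-induced genes 26 had a window in the RefSeq table, and 17 of the 26 held the element. By window that is 54.8% of 31, against 3.44% of all 32851 windows. Irgm1, Gbp7 and the other carriers were chosen for the list by their known induction, and a match is a description of letters, not a binding site. The Y box sequence was in 6 of the 13 MHC genes with a window (46.7% of 15 windows, against 4.10% of all), and in 0 of the 31 interferon windows. TAGCAAC was in 1 of the 13 MHC genes, H2-Eb1, and in 3.66% of all windows. X boxes with other letters were not searched for, so this does not count the genes that hold one.

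Of 8 channel and transporter families 7 had a median below 0 in stroma B, and 0 of their members passed. Aquaporins and connexins had 9 fitted higher and 9 lower (median 0.01), and GABA and glycine receptors 7 and 8. Of 36 sodium and calcium channel genes 29 were fitted lower (median −0.96), 16 without overlap, beside 13.1% of all genes tested. Cacna2d3, an accessory calcium channel subunit, was at 46.2, 48.3 and 50.4 CPM against 15.6, 23.1 and 23.1 (log2 fold change −1.23, edgeR adjusted p = 0.0674). Its relative Cacna2d1 went the other way, at 55.9, 20.6 and 41.2 against 439, 402 and 63.0 (2.94, edgeR adjusted p = 0.110). Of 73 potassium channel genes 50 were fitted lower (median −0.61), with Kcnk13, a background potassium channel, at 59.8, 54.1 and 54.7 against 6.88, 9.66 and 21.5 (−2.15, edgeR adjusted p = 0.0719). Of 24 glutamate receptor genes 19 were fitted lower (median −0.86, −1.52 without stroma B replicate 3), with Grm7 at 24.8, 27.0 and 17.6 against 7.99, 3.02 and 3.96 (−2.21, edgeR adjusted p = 0.0730).

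The 96 oxidative phosphorylation genes had a median of 0.10, the 48 proteasome genes 0.23 and the 75 ribosomal protein genes 0.42, with 68 of the last fitted higher and 0 past the threshold. The ribosomal median was 0.03 without stroma B replicate 1, whose sum over these genes was 9791 CPM beside 4586 and 5419 in replicates 2 and 3. Leaving out any library but stroma B replicate 3 moved the oxidative phosphorylation median, to between −0.02 (stroma A replicate 3) and 0.18 (stroma A replicate 2). The proteasome median was 0.14 without stroma A replicate 3 and 0.38 without replicate 1. Within the proteasome list Psmb8, the subunit that replaces a standard one under interferon, stood at the other end, at 17.3, 25.7 and 43.1 CPM against 4.21, 3.19 and 8.76 (log2 fold change −2.41, edgeR adjusted p = 0.0827). Of 23 cholesterol synthesis genes 21 were fitted lower, 5 without overlap (beside 13.1% of all genes tested), and 0 passed. The median of the 23 was −0.35, with −0.23 without stroma A replicate 1 and −0.54 without replicate 3 of either group. Hspd1, a mitochondrial chaperone, was at 62.5, 75.7 and 77.2 against 178, 113 and 158 (1.06, edgeR adjusted p = 0.0796).

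Over the genes tested, the median SD of log2 CPM was 0.33 in stroma A and 0.40 in stroma B. It was above 1 for 13.1% of genes in stroma A and 17.2% in stroma B, and above 2 for 612 and 388. Stroma A thus had more genes of very large spread and stroma B more of moderate spread. Between libraries, the root mean square difference of log2 CPM was smallest between stroma A replicates 2 and 3 (0.70). The next smallest was between stroma A replicate 1 and stroma B replicate 3 (0.99), a pair of different groups. Pairs within stroma B lay between 1.03 and 1.17, and stroma A replicate 1 was 1.21 and 1.45 from replicates 2 and 3 of its own group.

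**Figure D4:**
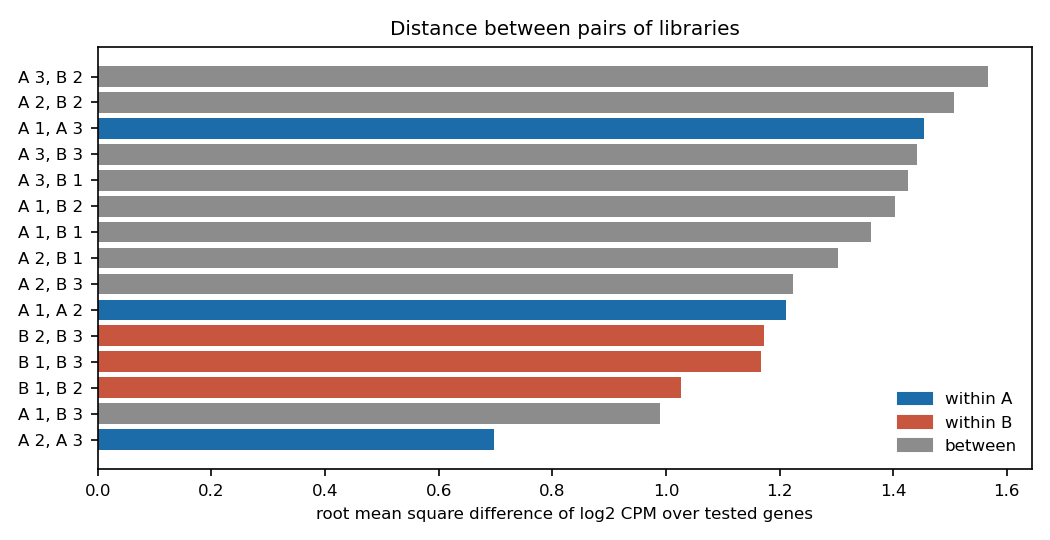
Root mean square difference of log2 CPM over the genes tested for each pair of the 6 libraries, coloured by whether the pair is within stroma A, within stroma B or between them. The pair of stroma A replicate 1 and stroma B replicate 3 has the second smallest distance, 0.99.

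Some families were spread more in one group and some in both. Chemokine ligands had a median SD of 2.33 in stroma A and 1.30 in stroma B, Fc and Toll-like receptors 2.22 and 0.97, and interferon-induced genes 1.77 and 1.09. In their lowest library the median level of these lists was −0.41, −0.08 and 0.38 log2 CPM, beside 4.83 for cell cycle genes. The part of low counts in their spread was not tested. In oligodendrocyte precursor genes the median SD was 0.41 and 1.43, in myelin genes 0.74 and 1.41, in secreted Wnt inhibitors 0.46 and 1.32 and in Hedgehog pathway genes 0.52 and 1.17. The 5 tested Hox genes were at 0.59 and 2.38, and reactive astrocyte genes of the A1 kind were spread in both, at 1.75 and 1.60. Cell cycle genes were tight in both, at 0.28 and 0.30, as were proteasome genes at 0.27 and 0.16. Of 1854 genes with an SD above 1 in stroma A, replicate 1 was the farthest from the group median in 74.3%, and it lay above the median in 3.48% of those. Of 2438 such genes in stroma B, replicate 3 was the farthest in 48.4%, replicate 2 in 26.8% and replicate 1 in 24.7%.

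The genes with the largest spread did not follow the groups, but a choice by spread within a group favours such genes. Prm1, a protamine that packs sperm DNA, stood at 265, 0.138 and 0.112 CPM across stroma A and at 0, 225 and 486 across stroma B. Ddx3y, Eif2s3y, Uty and Kdm5d, genes of the Y chromosome, were at 0 in stroma A replicate 1 and stroma B replicate 2, and between 45.8 and 104 in the other libraries. En1, a factor of midbrain and anterior hindbrain, was at 14.6, 15.3 and 11.7 against 16.9, 0 and 46.3, and En2 at 26.7, 29.2 and 29.2 against 52.1, 0.532 and 52.4. Stroma B replicate 2 thus lacked both Engrailed genes and was the library with the high Hoxb3. Vtn and Ctsh, of pericytes and phagocytes, were at 0.228 and 0 in stroma A replicate 1 and reached 351 and 88.2 in replicate 3.

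**Figure D5:**
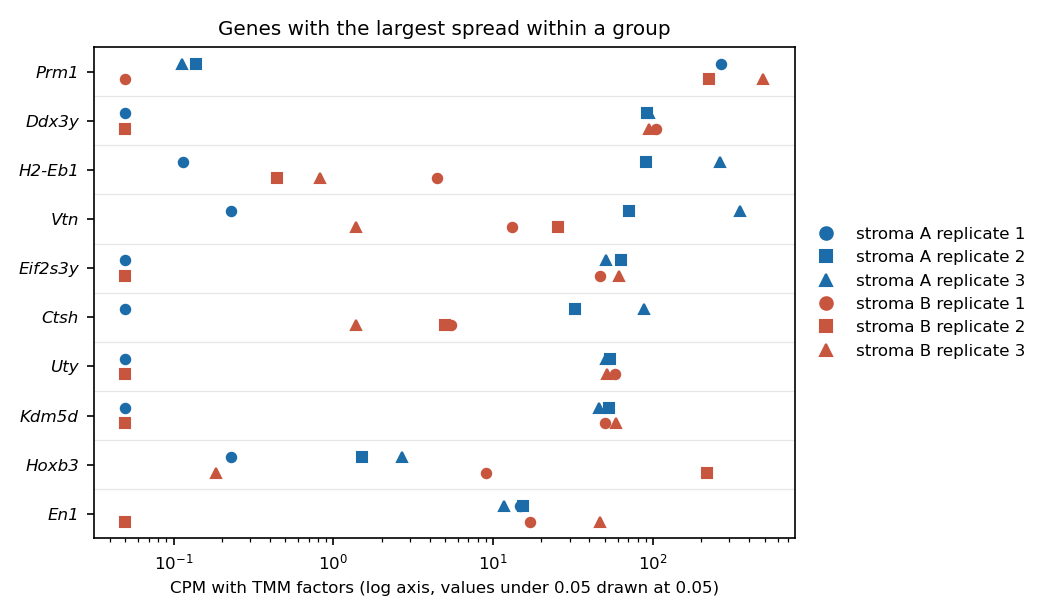
Level of the named genes with the largest SD of log2 CPM within stroma A or within stroma B at a mean of at least 10 CPM, on a log axis, with 1 point per library (stroma A blue, stroma B red). Prm1, the Y-linked genes, Hoxb3 and En1 divide the libraries in other ways than the group labels do. The choice by spread within a group favours such genes.

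The calls depended on which libraries were in the test. Fold changes moved less for Egfr, Nrg1 and Lhx2, genes picked because they passed it. Among list medians, that of collagens lay between −1.18 and −0.06 with 1 library left out. That of neural stem and progenitor genes lay between 1.55 and 1.84. The fit with 1 library left out called 0 genes for 5 of the 6 libraries (2067 to 3781 genes then had unadjusted p under 0.05), namely each library of stroma A and replicates 1 and 2 of stroma B. Leaving out stroma B replicate 3 raised the count to 1342, of 15433 genes tested, with 638 higher (4.13%) and 704 lower (4.56%). DESeq2, which was run on 19969 genes with at least 1 read, called 1797. Of the 14176 genes of the main test it called 823 higher and 821 lower. In the fits without 1 library the log2 fold change lay between 2.73 and 3.22 for Egfr, between −2.06 and −1.96 for Nrg1 and between 2.16 and 2.44 for Lhx2. Without stroma B replicate 3, 20 of the 24 oligodendrocyte precursor genes and 15 of the 24 myelin genes fell, among them Sox10 (log2 fold change −3.23, edgeR adjusted p = 0.0132) and Myrf (−4.28). A block for libraries holding Y-linked reads left 0 calls and so did one for Prm1 reads, both chosen after the data were seen (2731 and 3089 genes had an unadjusted p below 0.05).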

How the data were processed

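RNA of sorted cells was measured by bulk RNA-seq in 3 stroma A and 3 stroma B libraries. The authors deposited a table of read counts per gene symbol and a table of FPKM. Cell Ranger, STAR, Seurat and mm10 are named in the submitters' processing notes without roles, and no source used here gives the steps, settings or annotation behind the counts and the FPKM. Whether counting used strand is therefore unknown, so overlapping genes may share reads.

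From the deposited counts, genes were filtered with filterByExpr, scaled with TMM and tested with edgeR 4.0.16 (glmQLFit and glmQLFTest, R 4.3.3) with group as the only term. P-values were adjusted by Benjamini-Hochberg over all 14176 genes, with a threshold of 0.05. Log2 CPM used a prior count of 1. The deposited FPKM served for levels, and for limma 3.58.1 on log2(FPKM + 1) as an alternative. DESeq2 1.42.0, other scalings and filters, and left-out libraries were the other alternatives. The test was checked on simulated counts. The precision is limited by 3 libraries per group (common biological coefficient of variation 0.448), and depth was between 6718165 and 11798735 reads.

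The libraries and gene lists were chosen with earlier results of these data known, and counts over a list are descriptions. A count over members that passed the filter is no support. Families are described by how many members were fitted higher or lower, and "apart" or "without overlap" means that all 3 libraries of one group lay above all 3 of the other. Named genes are those past the threshold in a fixed list outside the cell cycle, the 15 largest rises and 15 largest falls outside it, up to 4 members of a list with the smallest p and its most abundant member, the fixed cell type markers, and the 8 genes of largest spread per group. H2-Aa and En2 were added after their values were seen. Coordinates are from RefSeq on GRCm38.p6, which shares its sequence with mm10. The single-cell samples were left out. Results for a few genes are not reported here.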

Additional observations from a re-analysis of the deposited data

How the results depend on the processing

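The count of 94 genes became 91 with RLE factors, 69 with upper-quartile factors and 85 with a filter of 1 CPM in 3 libraries. It became 227 without a filter (143 higher, 84 lower), 1797 with DESeq2 on 19969 genes with at least 1 read (825 higher, 972 lower) and 285 with limma on log2(FPKM + 1) (186 higher, 99 lower), beside 55 higher and 39 lower. Outside the cell cycle lists, a count added after the data were seen, 52 (13 higher, 39 lower) became 149 (65 and 84), 1588 (617 and 971) and 196 (97 and 99) in the same order. Leaving out 1 library gave between 0 and 1342 genes in all and between 0 and 1205 outside the cell cycle. With both libraries of number 5 left out the counts were 0 and 0 (1563 genes at an unadjusted p under 0.05). Blocks for Y-linked and for Prm1 reads, added after the data were seen, also gave 0 and 0. The cause was not tested. No paired analysis was possible because the groups share only the number 5. Of 63 genes given with a fold change, 0 changed sign in the 15 settings, of which limma held 56 of the 63, and 27 passed in the main test. Many of the 63 were named for a small p or a large change in these data, so this does not describe genes at large. With upper-quartile factors 7 of the 27 no longer passed, among them Nrg1, Trim59, Zfp326 and Vwf. Of 24 list medians 19 kept their sign. The exceptions were zinc fingers (−0.03 to 0.20), heparan sulfate enzymes (−0.50 to 0.03), oxidative phosphorylation (−0.14 to 0.31), ribosomal proteins (−0.10 to 0.61) and secreted Wnt inhibitors (−0.25 to 0.92). The median SD with the 1 CPM filter, also added later, was 0.32 in stroma A and 0.41 in stroma B.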
